A study of Caenorhabditis elegans with 2 samples.

Results

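The cytosolic ribosomal protein genes of Caenorhabditis elegans were taken as the protein-coding genes whose symbol is rpl- or rps- followed by a digit. There were 78 of them among 19973 nuclear protein-coding genes, 47 for the large subunit and 31 for the small subunit. At 42 of the 78 (53.8%) a reproducible NHR-11 ChIP-seq summit lay in the start window of the gene, against 3.3% of all protein-coding genes. The window ran from 1000 bases before to 500 bases after the annotated start, and a gene with such a summit is called bound here. Both subunits were reached alike, with 25 of 47 large-subunit genes (53.2%) and 17 of 31 small-subunit genes (54.8%). The summits at bound ribosomal protein genes all lay upstream of the start, and 34 of 42 (81%) fell in the band from 200 to 450 bases upstream.

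The ribosome translates messenger RNA. Its small subunit reads the message, and its large subunit joins the amino acids and holds the tunnel through which the new protein leaves. The proteins named here are built around ribosomal RNA in fixed proportions, one copy of nearly every protein per ribosome, and their genes are among the most highly transcribed in growing larvae. NHR-11 is a nuclear hormone receptor, a family of zinc finger transcription factors that in many animals bind short DNA elements related to AGGTCA.

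ChIP-seq recovers DNA that is crosslinked to a protein, and peaks mark where that DNA piles up. The study profiled 1 group, the strain OP305 with the genotype unc-119(ed3) III and the integrated transgene wgIs305, which carries eGFP-tagged nhr-11. Whole L3 larvae of mixed sex, of unknown age beyond the stage, were used for 2 biological replicates, and the library fragments were 150 to 350 bp. The protein measured is the tagged transgene product in whole animals, so cell types cannot be told apart, and the labels name nhr-11 as the antibody target without settling whether it was the tag. A control alignment entered the authors' signal values, but the control library was not analysed here, and it was not tested how far other tagged factors would give the same regions. The deposited lists held 1030 reproducible regions, and 30000 candidate regions each for the pooled reads, replicate 1 and replicate 2. Each region has a peak signal value from the authors, of unstated scale, which was used to rank regions within its own list, with rank 1 the strongest. The lists hold no counts, so read depth is unknown and single signals carry no error other than the difference between replicates.

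The DNA under the summits is shown first, since it is the material the signals describe. Each sequence spans 50 bases to either side of a reproducible summit on the strand of the gene, 5′ to 3′, and was read from the RefSeq genome sequence of WBcel235, the same build as ce11. Capitals mark 9 recurring words of 6 bases, described further on, on either strand. The first 4 sequences belong to the strongest regions of any ribosomal protein gene.
rpl-3, chrIII:3867522-3867622, plus strand: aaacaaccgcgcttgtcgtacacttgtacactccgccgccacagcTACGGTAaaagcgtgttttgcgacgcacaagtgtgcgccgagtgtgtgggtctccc
rpl-35, chrIII:7854631-7854731, plus strand: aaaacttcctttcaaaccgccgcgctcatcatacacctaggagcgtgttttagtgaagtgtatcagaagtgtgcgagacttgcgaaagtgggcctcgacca
rpl-20, chrIV:4750014-4750114, minus strand: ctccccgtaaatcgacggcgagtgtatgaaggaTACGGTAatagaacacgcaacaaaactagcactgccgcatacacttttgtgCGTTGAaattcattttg
rpl-15, chrIV:654874-654974, minus strand: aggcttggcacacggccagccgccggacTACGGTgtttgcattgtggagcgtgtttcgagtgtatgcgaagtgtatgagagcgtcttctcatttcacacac
A stretch with TACGGT stood within the windows of rpl-3, rpl-20 and rpl-15, and rpl-35 held none of the 9 words. All 4 windows held ACACGC on one strand or the other, a word found at 12 of 39 ribosomal regions (30.8%) and at 75 of 991 other reproducible regions (7.57%). The word was named after these values were seen, and the 4 windows are among the 12, so the shares are a description only.

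The next 6 windows were chosen for holding many of the recurring words, and they show the words running into each other.
rps-22, chrIII:1950375-1950475, plus strand: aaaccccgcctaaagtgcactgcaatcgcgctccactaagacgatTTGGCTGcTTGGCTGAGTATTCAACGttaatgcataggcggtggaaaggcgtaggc
rpl-32, chrII:9057389-9057489, minus strand: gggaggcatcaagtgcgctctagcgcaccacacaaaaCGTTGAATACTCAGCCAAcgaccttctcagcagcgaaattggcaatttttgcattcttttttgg
rpl-23, chrIII:5706372-5706472, minus strand: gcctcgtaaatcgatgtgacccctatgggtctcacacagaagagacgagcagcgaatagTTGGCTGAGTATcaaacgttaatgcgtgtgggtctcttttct
rpl-7A, chrIV:4390605-4390705, minus strand: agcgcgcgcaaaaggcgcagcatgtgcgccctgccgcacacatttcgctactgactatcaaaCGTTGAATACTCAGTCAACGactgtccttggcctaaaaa
rps-24, chrIV:385550-385650, plus strand: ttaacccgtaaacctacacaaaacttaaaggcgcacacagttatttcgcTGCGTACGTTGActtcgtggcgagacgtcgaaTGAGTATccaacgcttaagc
rps-3, chrIII:6206384-6206484, plus strand: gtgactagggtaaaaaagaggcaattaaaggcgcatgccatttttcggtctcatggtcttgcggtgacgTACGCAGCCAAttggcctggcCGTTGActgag
The stretch gttgaatactcag, or its other strand ctgagtattcaac, ran unbroken through the windows of rps-22, rpl-32 and rpl-7A. The 6 regions ranked from 191 for rpl-7A to 883 for rpl-32 in the reproducible list, all behind the 4 regions shown first.

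The last pair compares the genes of one protein, the large-subunit protein L11, at the same distance upstream. The window of rpl-11.2 is centred on its reproducible summit, 355 bases upstream, and that of rpl-11.1, which has no reproducible or pooled region, is centred on the base 355 upstream.
rpl-11.2, chrX:2242923-2243023, minus strand: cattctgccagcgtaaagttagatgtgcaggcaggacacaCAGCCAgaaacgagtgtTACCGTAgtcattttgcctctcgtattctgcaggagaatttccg
rpl-11.1, chrV:3586369-3586469, minus strand: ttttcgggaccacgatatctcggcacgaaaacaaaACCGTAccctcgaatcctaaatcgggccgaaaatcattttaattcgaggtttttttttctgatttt
The rpl-11.2 window held 3 of the 9 words and the rpl-11.1 window held 1, ACCGTA.

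Among the strongest regions, rpl-3, which encodes a protein reaching into the peptidyl transferase centre of the large subunit, stood first among the ribosomal protein genes. Its region had a signal of 279.6 in replicate 1, 236.0 in replicate 2 and 516 in the pooled list, and it ranked 2 in each of the lists. The summit lay 283, 264 and 282 bases upstream of the start of the gene in the same order. The region, chrIII:3867477-3867651 on ce11, fell in the start window of rpl-3 (WBGene00004414, plus strand) and of no other protein-coding gene.

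The region of rpl-35 (WBGene00004449, region chrIII:7854503-7854858), whose protein sits beside the exit of the nascent chain tunnel, had signals of 168.0 in replicate 1, 175.0 in replicate 2 and 344.9 pooled, with ranks of 13, 14 and 12. The region of rpl-20 had 161.5, 146.9 and 305.7, with ranks of 16, 25 and 19. The region of rpl-15 had 166.1, 142.4 and 304.9, with ranks of 14, 27 and 20. These genes of the large subunit thus ranked among the strongest 27 regions in every list. At rpl-20 the start of Y17G9B.5 was nearer, with the summit 176 bases upstream of it against 286 for rpl-20. At rpl-15 the summit was 348 bases upstream of the gene and 466 bases upstream of K11H12.8.

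Small-subunit genes followed. The region of rps-1 had signals of 120.0 and 112.8 in replicates 1 and 2 and 235.9 pooled, at ranks of 34, 38 and 36. The region of rps-12 had 123.0, 96.4 and 220.9, at ranks of 31, 53 and 38, and its summit lay 151 bases upstream of rps-12 and 142 bases upstream of ska-3. Both thus ranked in the strongest 53 regions of either replicate, though the rps-12 region is as close to its neighbour as to the ribosomal gene. The region of rpl-12, a protein of the stalk base where translation factors dock, had 107.9, 91.6 and 198.3, at ranks of 45, 59 and 47. Its summit was the nearest to a start among the bound genes, 35 bases upstream.

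The region of rpl-11.2, whose protein contacts the smallest ribosomal RNA of the large subunit, had signals of 76.2 in replicate 1, 96.4 in replicate 2 and 174.5 pooled, with ranks of 92, 52 and 65. That of rps-28 had 73.8, 85.2 and 160.0, with ranks of 99, 67 and 78. That of rps-20 had 77.2, 72.4 and 147.5, with ranks of 89, 114 and 100. The order of such neighbours is not settled, since the replicates exchanged it: rps-20 ranked ahead of rps-28 and rpl-11.2 in replicate 1 and behind both in replicate 2. The regions of rps-19, the small-subunit protein whose human gene is often mutated in Diamond-Blackfan anaemia, and of rps-15 completed the strongest 12 genes. Their ranks in replicate 1, replicate 2 and the pooled list were 159, 98 and 118 for rps-19 and 125, 147 and 123 for rps-15.

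**Figure D1:**
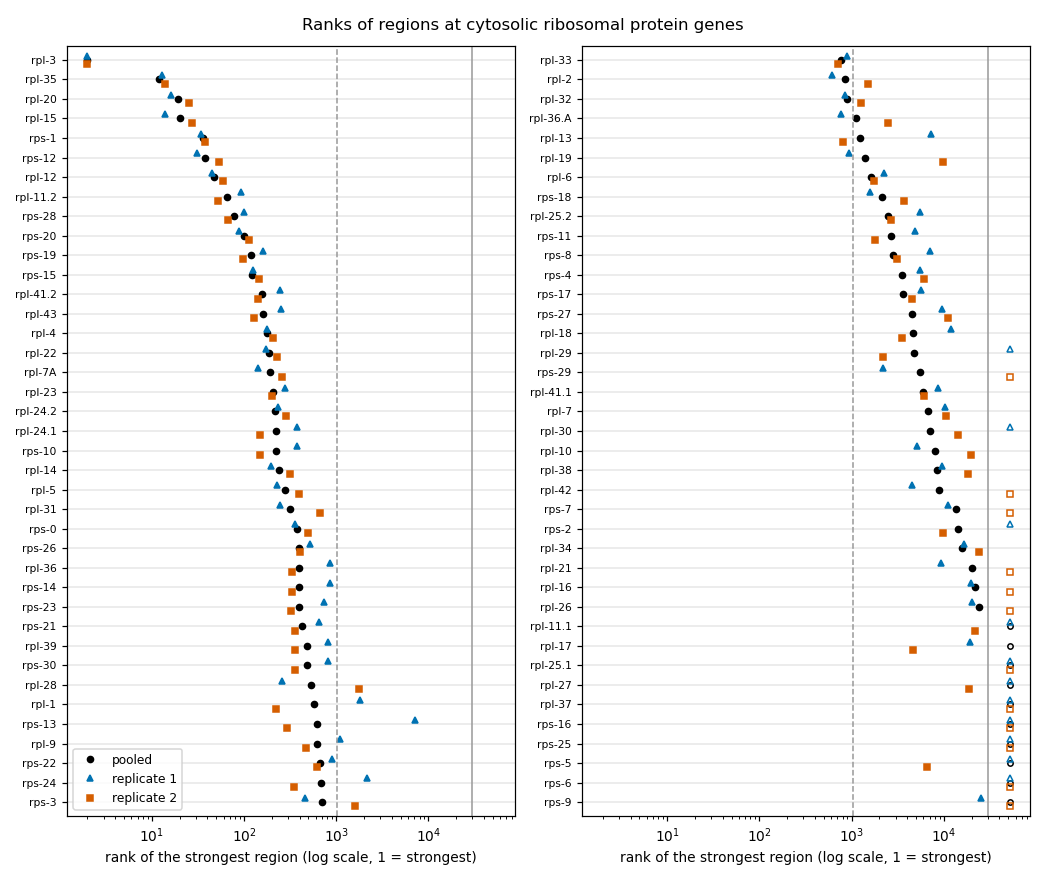
Rank of the strongest region in the start window of each of the 78 cytosolic ribosomal protein genes, on a log scale with 1 the strongest, for the pooled list (black circles), replicate 1 (blue triangles) and replicate 2 (orange squares). The dashed line marks rank 1030 and the grey line rank 30000, the end of a list, and open symbols to its right mark genes with no region in that list. The 42 genes with a pooled rank up to 1030 are bound, from rpl-3 at rank 2 to rpl-32 at rank 883.

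The ribosomal regions were concentrated toward the strong end of the reproducible list. The 42 bound genes shared 39 distinct regions, and 991 reproducible regions lay elsewhere. Signals of the 39 had a median of 107.7, quartiles of 74.4 and 143, and a range from 58.8 to 516. The other 991 had a median of 73.4, quartiles of 62.3 and 98.3 and a highest value of 899. The 472 of these that lay in a gene start window had a median of 73.7 and quartiles of 62.9 and 95.5. Of the 39, 29 (74.4%) were among the 515 strongest of the list, as were 486 of the other 991. Among the 100 strongest pooled regions a summit fell at 10 of the 78 ribosomal protein genes (12.8%), where the share of all protein-coding genes was 0.381%.

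The ribosomal share stayed above that of other genes as weaker pooled regions were taken in, while the ratio between them narrowed. The 20 strongest regions reached 4 ribosomal protein genes (5.13%) and 0.0452% of other genes. The 250 strongest reached 22 (28.2%) and 0.769%, and the 1030 strongest reached 42 (53.8%) and 3.1%. The 2000 strongest reached 46 (59%) and 4.99%. With all 30000 pooled candidates, 68 of the 78 (87.2%) had a summit in the window, against 43.2% of all protein-coding genes. Candidate lists include background by design, so the lower end of this series is a count of listed regions and not of binding. The other genes were not matched to the ribosomal genes for expression or for how open their promoters are, and the part of either in the difference was not tested.

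**Figure D2:**
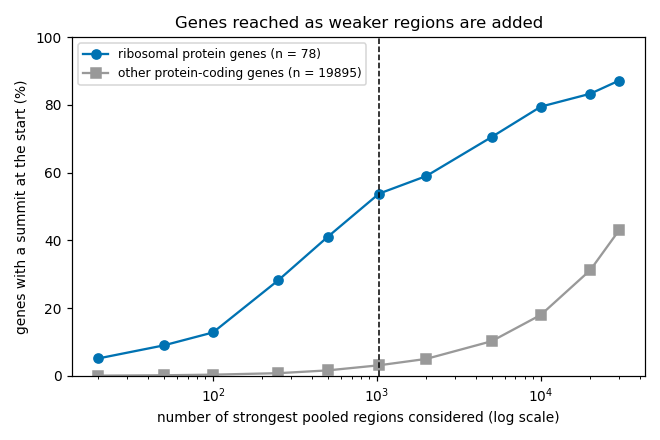
Percent of genes with a summit in the start window (vertical axis) when the strongest regions of the pooled list are considered up to the number on the horizontal axis (log scale), for 78 cytosolic ribosomal protein genes (blue) and 19895 other protein-coding genes (grey). At the dashed line, 1030 regions, the shares were 53.8% and 3.1%, and at 30000 regions they were 87.2% and 43%.

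Each replicate alone gave similar counts. A summit among the 1030 strongest regions of replicate 1 fell at 40 of the 78 genes (51.3%, against 3.07% of all protein-coding genes). In replicate 2 it fell at 39 (50%, against 3.11%). Both held at 34 genes (43.6%, against 2.14%). Of the 39 ribosomal regions, 31 (79.5%) overlapped the 1030 strongest of both replicates, 4 those of replicate 1 only and 4 those of replicate 2 only. Of the other 991 regions 621 (62.7%) did so in both. By strength, among the 515 strongest of the list, 29 of 29 ribosomal regions and 462 of 486 others (95.1%) were in both, and among the weaker ones 2 of 10 and 159 of 505 (31.5%) were.

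Summit positions also repeated. Between replicates they moved by a median of 14 bases at the 39 ribosomal regions, with a largest shift of 174 bases, and by a median of 22 bases at 988 others. Over the 59 ribosomal protein genes with overlapping regions in both replicate lists, the ranks had a Spearman correlation of 0.856, a description over genes of the same animals and strain that share regions at 3 promoters. By the ratio of their ranks, the replicates were farthest apart at rps-13, 7088 in replicate 1 and 289 in replicate 2, with a pooled rank of 612 and a signal of 69.5. Next by that ratio came rpl-19, with ranks of 941 and 9890, and rpl-13, with 7350 and 811, neither of them bound. At each of these 3 genes, 1 replicate ranked the region inside its strongest 1030 and the other did not.

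The edge of the reproducible list ran through the ribosomal genes without a wide gap in signal. The last bound genes were rpl-33 with a pooled signal of 62.8 at rank 766, rpl-2, another protein of the peptidyl transferase centre, with 59.8 at rank 848, and rpl-32 with 58.8 at rank 883. The first that were not bound were rpl-36.A with 52.4 at rank 1123, rpl-13 with 49.99 at rank 1247 and rpl-19 with 47.9 at rank 1397. In replicate 1, rpl-36.A ranked 767 and rpl-19 ranked 941, and in replicate 2 rpl-13 ranked 811, so each of the 3 was inside the strongest 1030 of one replicate. A division between bound and not bound at these genes is therefore a matter of the cutoff.

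Of the 36 genes that were not bound, 26 had a pooled candidate region and 10 did not. Of those 10, 5 had no region in any of the lists, namely rps-6, whose protein is the classic substrate of S6 kinase in mammals, rps-16, rps-25, rpl-25.1 and rpl-37. The others were listed in a single replicate or in both but not in the pooled list. rpl-17 ranked 19451 in replicate 1 and 4660 in replicate 2, rps-5 ranked 6521 in replicate 2, and rps-9 ranked 25116 in replicate 1. These are ranks in the part of the candidate lists that was deposited to include background.

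Some starts without a summit had one close by. The nearest reproducible summit to rpl-27 lay 711 bases downstream of its start, at rank 92, and that of rps-16 lay 1747 bases upstream, at rank 244. The latter is the region of fib-1, which encodes the nucleolar protein fibrillarin and whose end lies 109 bases before the start of rps-16 on the same strand. At fib-1 the signals were 53.9 in replicate 1, 49.3 in replicate 2 and 103 pooled, with the pooled summit 65 bases upstream of its start. A like arrangement stood at rpl-25.1, where the gene glit-1 ends 97 bases before the start on the same strand. The region of glit-1 had signals of 40.04, 23.9 and 68.4, ranks of 436, 1638 and 636, and a summit 230 bases upstream of its start. These are 2 of the 8 unbound ribosomal genes with an upstream gene on the same strand within 500 bases. At the other 6 the upstream gene has no reproducible region, and at 3 of those, upstream of rpl-19, rps-2 and rps-17, it has no region in any list. In worms, closely spaced genes on one strand are often transcribed together from the promoter of the first, and whether that is so at these loci was not tested.

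The neighbours of bound and unbound genes were described by their orientation. The nearest upstream gene was on the opposite strand at 35 of 42 bound ribosomal genes (83.3%) and at 19 of 36 without a reproducible region (52.8%), against 62.9% of other bound genes and 46.2% of all other genes. The 35 include rpl-24.2, whose start lies within the opposite-strand gene C03D6.1. With a gap of at most 1000 bases as well, the counts were 32 (76.2%) and 17 (47.2%). Among other genes this was 36% of 617 bound genes and 21.1% of all 19895. A neighbour on the same strand within 500 bases was found at 0 of the 42 bound genes and at 8 of the 36 others (22.2%), namely rpl-16, rpl-19, rpl-25.1, rpl-27, rps-2, rps-7, rps-16 and rps-17. The same was true of 13% of other bound genes and 20.6% of all other genes, so the share of the unbound ribosomal genes was near that of the genome. These counts were chosen with the results known and carry no test. The gaps themselves were alike, with medians of 550 bases for bound and 562 for unbound genes, and so were the gene lengths, with medians of 751 and 758.5 bases.

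**Figure D3:**
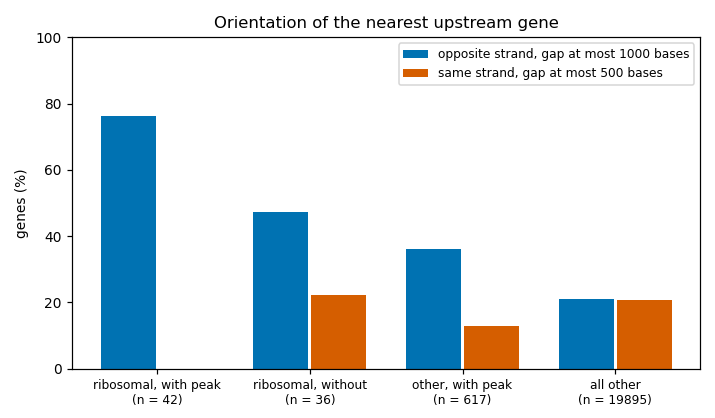
Percent of genes whose nearest upstream gene lies on the opposite strand within 1000 bases (blue) or on the same strand within 500 bases (orange), for ribosomal protein genes with (n = 42) and without (n = 36) a reproducible peak, other genes with a peak (n = 617) and all other genes (n = 19895). The ribosomal genes with a peak have the tallest blue bar, 76.2%, and no orange bar, at 0 of 42.

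Many regions lay in the start windows of neighbouring genes as well. Of the 39 regions, 29 also lay in the start window of a gene outside the ribosomal set and 10 lay in windows of ribosomal protein genes alone. When a summit was given to the nearest start only, 23 of the 78 genes (29.5%) kept one, against 2.51% of all protein-coding genes. The lists cannot tell which gene of a pair a region acts on, if any.

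At 3 promoters both neighbours were ribosomal protein genes, facing away from each other. The region between rpl-24.1 and rps-10 had signals of 42.7 in replicate 1, 65.3 in replicate 2 and 107.7 pooled, at ranks of 372, 150 and 224, with the summit 279 bases upstream of rpl-24.1 and 331 bases upstream of rps-10. The region between rpl-36 and rps-14 had 31.0, 46.9 and 81.9, at ranks of 862, 328 and 396, and lay 386 and 277 bases upstream of them. The region between rpl-39, a protein of the exit tunnel wall, and rps-30, made as a fusion with a ubiquitin-like protein, had 31.5, 45.5 and 75.6, at ranks of 823, 353 and 484. It lay 245 and 254 bases upstream, near the middle of the gap. Each of these pairs joins a gene of the large subunit to one of the small subunit, and all 3 regions ranked better in replicate 2.

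Of 4 pairs of genes numbered as copies, 2 held a bound and an unbound gene, 1 had both bound and 1 had neither. For the L11 pair, rpl-11.2 was bound at rank 65, while rpl-11.1 was listed in replicate 2 alone, with a signal of 10.9 at rank 21929. For rpl-41, the smallest ribosomal protein, rpl-41.2 had a region with signals of 52, 67.5 and 123.4 in replicate 1, replicate 2 and the pooled list, 250 bases upstream of its start. The neighbouring copy rpl-41.1, on the same strand before it, had a candidate region with signals of 16.8, 16.4 and 31.9, at a pooled rank of 5889. The reproducible summit of rpl-41.2 lay 852 bases downstream of the rpl-41.1 start. Of the rpl-25 pair, whose proteins sit at the exit of the tunnel, rpl-25.2 had a pooled candidate of 39.9 at rank 2497 and rpl-25.1 none.

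Both rpl-24 genes were bound, although their products differ, since rpl-24.2 resembles an assembly factor of the large subunit in other species. The rpl-24.2 region had a pooled signal of 108.8 at rank 215, next to rpl-24.1 at rank 224, and its summit lay in an intron of C03D6.1, the one intronic summit among the 39. The symbols rpl-7 and rpl-7A, and rpl-36 and rpl-36.A, name different proteins. Of these, rpl-7A was bound with a pooled signal of 116.3 at rank 191, and rpl-7 had a candidate of 30.9 at rank 6676. Their regions in replicates 1 and 2 ranked 142 and 259 for rpl-7A and 10251 and 10681 for rpl-7, so these 2 genes stood apart in both.

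Several ribosomal protein genes carry small nucleolar RNA (snoRNA) genes within them, which guide modification of ribosomal RNA. A snoRNA gene lay inside 8 of the 42 bound genes (19%) and 5 of the 36 others (13.9%), against 0.734% of all other genes. The bound hosts with the strongest regions were rpl-15, rps-12, rpl-4 and rpl-7A. The region of rpl-4 had signals of 59.8 in replicate 1, 56.8 in replicate 2 and 118.4 pooled, 297 bases upstream of the gene. Bound and unbound genes differed by few hosts, and the difference was not tested.

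The position of the summits was narrow. Bound ribosomal genes had a median distance of 284 bases upstream of the start, with quartiles of 255.25 and 354 and a range from 35 to 725. The 617 other bound genes had a median of 253 and quartiles of 132 and 498. The middle of the window lies 250 bases upstream, so the medians say little, and the difference is in the spread: the quartiles were 98.75 bases apart at ribosomal genes and 366 at others. With the nearest start only, these spans were 100 and 320 bases. The gaps to the upstream gene differed too. Their median was 550 bases at bound ribosomal genes, with quartiles of 447 and 689.75. At other bound genes it was 818 bases, with quartiles of 379 and 2031. The part of these gaps in the spread of the summits was not tested. Shares within 200 to 450 bases upstream were 34 of 42 (81%) and 204 of 617 (33.1%), and 0 and 51 summits (8.27%) lay downstream of the start. Measured from the start codon, the ribosomal summits lay a median of 301.5 bases upstream, between 91 and 725.

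The outermost summits were those of rpl-43, 725 bases upstream, and rpl-35, 453 bases. The rpl-43 region, with signals of 51.1 and 69.4 in replicates 1 and 2 and 122.5 pooled, was nearer to Y48B6A.1, with its summit 196 bases upstream of that gene. The innermost were those of rpl-12 at 35 bases and rpl-7A at 65. Candidate regions of the 26 unbound ribosomal genes with one were looser, with a median of 332.5 bases, 24 upstream of the start and 13 (50%) in the same band. For 7940 other genes with a candidate alone, the share in the band was 19.9%.

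**Figure D4:**
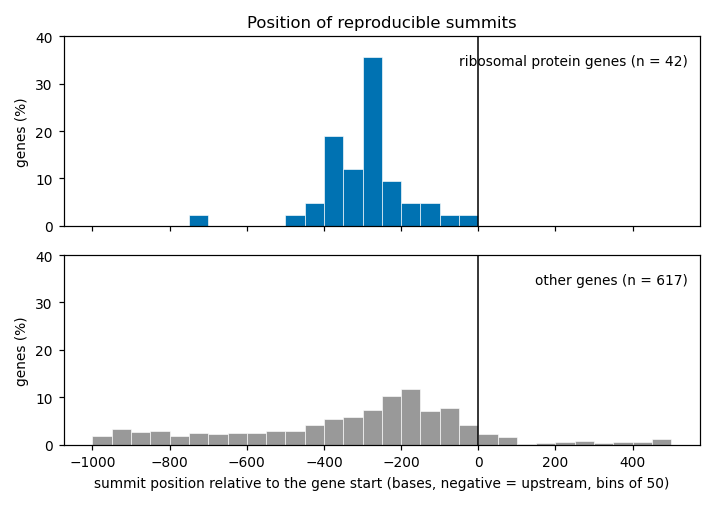
Position of reproducible summits relative to the gene start in bases, in bins of 50 (negative values are upstream), as percent of bound genes, for 42 cytosolic ribosomal protein genes (top) and 617 other genes (bottom). All 42 ribosomal summits lie left of the start, 34 of them from 200 to 450 bases upstream, where 33.1% of the other genes have theirs.

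In the annotation, 32 of the 39 ribosomal summits (82.1%) were intergenic, 6 (15.4%) in an exon of a noncoding gene and 1 (2.56%) in an intron. None lay in coding sequence or in a UTR. Of the other 991 summits, 599 (60.4%) were intergenic, 237 (23.9%) in introns and 90 (9.08%) in an exon of a noncoding gene. Few of them lay in a UTR, 45 (4.54%), or in coding sequence, 20 (2.02%). The 39 all lie in a gene start window by definition, and 472 of the other 991 do. The shares are thus not of like regions, and differences between them follow in part from that choice. On the chromosomes, the bound share ran from 7 of 17 on IV (41.2%) to 13 of 18 on III (72.2%), with 12 of 23 on I, 5 of 10 on II, 4 of 8 on V and 1 of 2 on X. Over all protein-coding genes the bound share was also highest on III (5.3%), and it was 2.65% on IV, so an order among chromosomes was not read from the ribosomal genes.

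The words of the sequences shown above were counted in the 101 bases around each summit, on both strands. GAGAGA, the word of GAGA-type elements, was found at 2 of 39 ribosomal regions (5.13%) and at 293 of 991 other reproducible regions (29.6%). With 100 bases to either side of the summit in place of 50, GAGAGA was found at 6 (15.4%) and 46%. In the 500 bases upstream of the start it stood at 12 of 42 bound (28.6%) and 18 of 36 unbound ribosomal genes (50%). Among other genes it stood at 46.8% of the bound ones and at 29.9% of all. Within 50 bases of the summit, ACGCAG was found at 10 (25.6%) and 16.3%, GCGCGC at 5 (12.8%) and 4.84%, and AGACGC at 4 (10.3%) and 13.5%. With 100 bases to either side, the shares of ACGCAG were close, at 11 (28.2%) and 24.6%. Those of GCGCGC were then 6 (15.4%) and 9.28%. The nuclear receptor element AGGTCA was found at 0 of 39 and at 27 of 991 (2.72%), and its variants AAGTCA and AGTTCA at 1 of 39 each (2.56%), against 3.83% and 3.63%. CACGTG (6.36% of the others), TGATAA (5.65%), TATAAA (4.64%) and TGTTTA (5.15%) were also found at 1 of 39 each. Shares that rest on 1 region are not stable: with 100 bases to either side, TGTTTA was found at 5 (12.8%), against 10.5% of the others. A match is a run of letters and does not show a site, and its absence from this window says nothing of the receptor.

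A search over all 2080 words of 6 bases, with a word and its reverse complement counted as one, gave 9 that stood at 25% or more of ribosomal regions and at less than 5% of the other reproducible regions. The words were picked on these regions, so their shares describe the regions and are not tested. They were ACCGTA (35.9% against 3.94%), CGTTGA (33.3% against 3.83%), CAGCCA (33.3% against 4.14%), AGCCAA (33.3% against 4.34%) and ACGGTA (30.8% against 2.83%). The rest were TACTCA (30.8% against 4.24%), ACTCAG (28.2% against 3.13%), TACGCA (28.2% against 4.74%) and ATACTC (25.6% against 4.24%). Several overlap and are not separate elements: ACCGTA and ACGGTA meet in TACGGTA, the words CAGCCA and AGCCAA share 5 bases, and the last word, ATACTC, overlaps both TACTCA and ACTCAG.

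At least 1 of the 9 words was present at 34 of 39 ribosomal regions (87.2%) and at least 3 were present at 22 (56.4%). For the other reproducible regions, these shares were 24.8% and 1.92%. The candidate regions of unbound ribosomal genes held at least 1 word in 9 of 26 (34.6%) and at least 3 in 1 (3.85%). At 7018 candidates of other genes these shares were 21% and 1.04%. The windows also differed in base composition, with a GC content of 48.9% ± 4.98 (SD over 39 regions) at ribosomal regions, 44.9% ± 8.43 at the other 991, and 36.9% ± 10.6 at the 26 candidates. The part of base composition in the word counts was not tested.

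**Figure D5:**
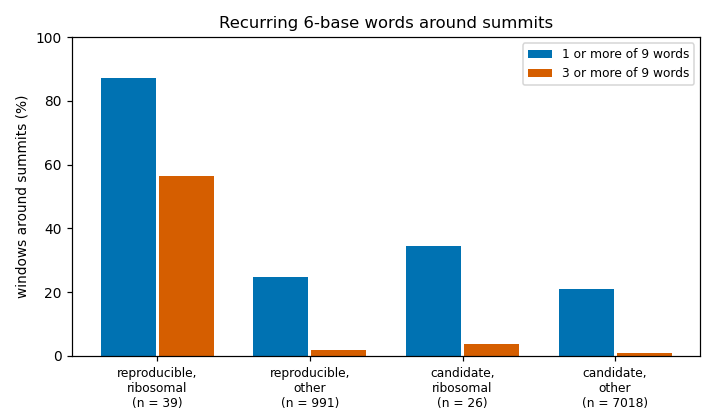
Percent of windows of 101 bases around summits that hold 1 or more (blue) or 3 or more (orange) of the 9 recurring words, for 39 reproducible regions at ribosomal protein genes, 991 other reproducible regions, 26 candidate regions of ribosomal genes without a reproducible one, and 7018 candidate regions of other genes. The words were chosen on the first and second groups; 87.2% and 56.4% of the first hold 1 and 3 words.

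In the 500 bases upstream of the start, at least 3 of the words stood at 28 of 42 bound ribosomal genes (66.7%). The same held for 6 of 36 unbound ones (16.7%), 18.5% of other bound genes and 14.4% of all other genes. The words were chosen on windows around the bound ribosomal summits, and every such summit except that of rpl-43 lies in this stretch. Higher shares at bound than at unbound ribosomal genes thus follow in part from that choice and are no separate evidence. At least 1 word stood at 92.9% of bound and 83.3% of unbound ribosomal genes, 74.1% of other bound genes and 67.4% of all other genes, so the groups were closer by that count. The single word ACCGTA went the other way, with 16 of 42 bound (38.1%) and 20 of 36 unbound ribosomal genes (55.6%), against 13.8% of all other genes. ACCGTA is thus frequent upstream of ribosomal protein genes with or without a reproducible region, whereas AGCCAA stood at 19 bound (45.2%) and 3 unbound genes (8.33%), against 18.2% of all other genes.

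Longer runs were shared between ribosomal promoters. A run of 21 bases, gcattaacgttgaatactcag, was common to the windows of rps-22 and of the rpl-39 and rps-30 promoter, and it had 2 matches in the genome, both in the start windows of these genes. A run of 17 bases, aaacgagtgttaccgta, was common to rpl-11.2, rps-23 and rps-13. Of its 15 matches in the genome, 8 lay in the start window of a ribosomal protein gene and 6 in a reproducible region. Those 8 include matches at rpl-19, rpl-21, rpl-34 and rps-18, which are not bound. A run of 16 bases, aacgttgaatactcag, was common to rpl-7A, rpl-32, rps-22 and the rpl-39 and rps-30 promoter. It had 16 matches, 7 at ribosomal protein genes and 9 in reproducible regions, and the 1 unbound ribosomal gene with it was rpl-13, just outside the reproducible list. Counted by bound and unbound ribosomal genes, the run of 21 stood at 3 and 0, the run of 17 at 5 and 4, and the run of 16 at 7 and 1. The runs were taken from windows of bound genes, so these counts cannot test whether a run sorts bound from unbound genes. The runs were chosen after the sequences were seen.

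Genes with related roles were counted in the same way, from lists of symbols. Of 5 genes for cytosolic ribosomal proteins or ribosome-bound proteins with other symbols, 1 was bound, ubl-1, which encodes a small-subunit protein fused to a ubiquitin-like protein. Its region had signals of 32.7 in replicate 1, 34.8 in replicate 2 and 69.8 pooled, at ranks of 760, 667 and 605, with the summit 231 bases upstream. The ribosomal stalk protein genes rla-0 and rla-1 had no pooled region, rla-2 had a candidate at rank 6516, and rack-1, for a scaffold on the small subunit, had one at rank 5465. Mitochondrial ribosomal protein genes were bound at 4 of 70 (5.71%), of which mrpl-49 shares its region with rpl-28. Of 50 symbols listed for ribosome assembly and rRNA synthesis, 40 matched the annotation. Of these 40 genes, 4 (10%) were bound, namely fib-1, pro-1, rbd-1 and lpd-7, the last sharing its region with rpl-9. Translation factor genes were bound at 8 of 39 (20.5%). All of these stand beside 3.3% of all protein-coding genes and 53.8% of the cytosolic ribosomal protein genes, and the differences between lists were not tested.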

How the data were processed

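The study measured NHR-11 binding by ChIP-seq in 1 group with 2 biological replicates. Per the file headers and descriptions, the authors deposited 4 peak lists on ce11: candidates for each replicate, candidates for the pooled reads, and regions kept by an irreproducible discovery rate filter. Their signal values are the authors' own, computed from the sample and a control, and their scale, the caller and the aligner are not stated in what was used. The 1030 reproducible regions were the strongest 1030 of the pooled list. Depth is unknown, and lists on ce10 were not used.

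Summits were joined to gene starts of the Ensembl release 115 annotation of WBcel235, the build of ce11. For each gene the strongest region whose summit fell in the window was kept. Words were searched in the RefSeq sequence of the same build. No test between groups was possible and none was made over genes or regions, since neighbouring genes share regions. Members, gene lists, words and comparisons were chosen with earlier results of these data known. Genes named were the 12 strongest, pairs of like symbols, those sharing a region, those beside the cutoff, those with no region, the most discordant and outermost ones, the snoRNA hosts, and 5 genes with other symbols; fib-1, glit-1 and further genes were named after their values were seen. Alternatives covered the window, the gene assignment, the strength cutoff, the word window and each replicate alone. The assignment of summits to gene starts was tested on single simulated summits placed at known distances. Python 3.11.15, numpy 2.4.6, scipy 1.17.1 and matplotlib 3.10.9 were used.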

Additional observations from a re-analysis of the deposited data

How the results depend on the processing

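The number of bound ribosomal protein genes was 41 with a window of 500 bases upstream to 250 downstream, which lost rpl-43, and 45 with 2000 bases to each side, which gained rpl-27, rpl-41.1 and rps-16. Any transcript start gave 42, the 515 strongest regions 32, and overlap with the strongest regions of both replicates 34. Without replicate 1 there were 39, of which 38 are among the 42 and rpl-13 was added. Without replicate 2 there were 40, with 38 of the 42 and rpl-19 and rpl-36.A added. The shares of other genes were then 2.93% and 2.89%. These are the counts already given for the 1030 strongest regions of replicate 2 and of replicate 1, and not a further check. Assignment to the nearest gene alone moved the count to 23, with 14 large-subunit and 9 small-subunit genes in 23 regions, by its construction. The share of other genes bound moved from 3.1% to 2.24% with the shorter window, 5.01% with the longer, 2.41% with the nearest gene alone, 3.37% with any transcript start, 1.65% with the 515 strongest and 1.98% with both replicates. The shares of AAGTCA and TGTTTA were 0 among the 515 strongest, and leaving out a replicate put AAGTCA between 0 and 5.56% and TGTTTA between 0 and 5.41%. Without replicate 1, TGATAA and TATAAA were at 5.56% in place of 2.56%. With 100 bases to each side, GAGAGA and AGACGC were at 15.4%, TGTTTA at 12.8%, AAGTCA at 7.69%, like TGATAA and TATAAA, and AGTTCA at 5.13%. For the same words in that order, the other 991 reproducible regions were then at 46%, 20.8%, 10.5%, 8.88%, 12.7%, 11.4% and 7.77%. Each of these shares was also higher than with 50 bases to each side, so the rise was not particular to ribosomal regions. No paired analysis was possible because the study has 1 group. Depth and control signal are unknown here, so weak and absent regions cannot be told apart.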
